A study of Homo sapiens with 3 samples.

Results

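The genes described here are the cytosolic ribosomal protein genes of Molm13 cells, chosen by symbol: RPL or RPS and a number, with an optional A or X or an L followed by a digit, together with RPLP0, RPLP1, RPLP2 and RPSA. Pseudogenes, antisense genes, the RPS4Y genes, the RPS6K kinases and RPS19BP1 were left out. The rule found 80 of the 25702 genes counted, 49 of the large (60S) and 31 of the small (40S) subunit. They lie on 21 chromosomes, 12 of them on chromosome 19 and 4 on the X chromosome. RPL10L, RPL36AL, RPL39L, RPS27L and RPL3L, whose symbols end in L, fall outside the rule.

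Molm13 cells are a line of human acute myeloid leukemia whose FLT3 gene, for a receptor tyrosine kinase, carries an internal tandem duplication. Asynchronous cells were exposed for 6 h to pyrvinium, an anthelmintic cyanine dye that the study examined against leukemia, or to its vehicle DMSO. The 3 groups were the vehicle and pyrvinium at 50 nM or at 100 nM, with 1 library per condition, all from the same line grown in RPMI medium with serum. The comparisons ask how the transcriptome differed after pyrvinium, and both doses were compared with the same DMSO library.

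Each cytosolic ribosome joins 1 small subunit, which reads the mRNA, to 1 large subunit, which forms the peptide bond, and most ribosomal proteins are present once in each ribosome. Most of their mRNAs begin with a C followed by a run of pyrimidines, the 5′ terminal oligopyrimidine (5′ TOP) tract, through which the kinase mTORC1 and the RNA-binding protein LARP1 control their translation and stability. In proliferating leukemia cells these mRNAs are among the most abundant. mRNA counts do not measure translation.

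The first transcribed bases were read in the RefSeq promoter table (GRCh38.p14), which held 65 of the 80 genes. Only the first entry listed for a gene was read, and whether it is the main start in Molm13 cells was not tested. A tract, taken as a C and at least 4 more pyrimidines from the annotated first base, was present in 43 of 65 (66.2%), against 4.04% of all 27305 promoters in the table. It was 5 to 19 bases long, with a median of 8.0. Allowing the tract to start within 5 bases of the annotated start, 51 of 65 (78.5%) had one, against 21.1% of all promoters. The windows below, 30 bases before and 20 after the annotated first base, belong to the genes with the highest and lowest differences at 100 nM, to RPL37A, which differed most between the doses, to both members of a paralog pair and to the gene with the longest tract. They are written 5′ to 3′ on the gene's strand, and capitals mark a tract that starts at the first base.
RPL12, chr9:127451387-127451436, minus strand: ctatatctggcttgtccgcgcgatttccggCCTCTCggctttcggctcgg
RPL22L1, chr3:170870176-170870225, minus strand: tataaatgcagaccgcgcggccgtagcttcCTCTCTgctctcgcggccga
RPL3, chr22:39319604-39319653, minus strand: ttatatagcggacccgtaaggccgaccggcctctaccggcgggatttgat
RPLP0, chr12:120201092-120201141, minus strand: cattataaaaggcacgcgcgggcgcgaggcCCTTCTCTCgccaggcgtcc
RPLP2, chr11:809937-809986, plus strand: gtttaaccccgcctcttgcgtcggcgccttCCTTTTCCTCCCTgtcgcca
RPL37A, chr2:216498814-216498863, plus strand: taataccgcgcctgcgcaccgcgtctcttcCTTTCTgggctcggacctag
RPS28, chr19:8321466-8321515, plus strand: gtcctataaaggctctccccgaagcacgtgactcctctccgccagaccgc
RPL26, chr17:8383174-8383223, minus strand: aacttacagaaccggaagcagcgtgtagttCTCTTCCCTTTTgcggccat
RPL26L1, chr5:172958699-172958748, plus strand: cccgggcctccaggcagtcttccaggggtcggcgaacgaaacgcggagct
RPL39, chrX:119791611-119791660, minus strand: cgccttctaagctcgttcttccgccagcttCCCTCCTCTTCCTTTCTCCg

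The paralogs RPL26 and RPL26L1 differed in this feature: RPL26 had a tract of 12 bases and RPL26L1 had none at the annotated start. RPL39 had the longest tract, of 19 bases. In RPL3 a pyrimidine run began 1 base before the annotated start, and in RPS28 1 base after it, so that an annotation displaced by a few bases decides whether a tract is counted.

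The libraries held 22677038 to 24075123 counts, and 12879 genes had at least 10 counts in at least 1 library. All 80 ribosomal protein genes passed this filter, with 219 to 95375 counts in any library. The myeloid genes PTPRC, CD33, SPI1, FLT3, MPO and LYZ were detected at 291 to 11181 counts, while ANPEP had at most 2 counts. The 11 markers of erythroid, lymphoid, epithelial and stromal cells had 0 to 26 counts each.

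Levels were compared between genes as TPM, the count per exon base scaled so that every library has the same total, computed from the counts and the deposited exon lengths. In the DMSO library the ribosomal protein genes had a median of 1709 TPM, and 46 of the 100 genes with the highest TPM were among them. RPL30, a large-subunit protein, was the highest, at 10109, 10416 and 10355 TPM in the DMSO, 50 nM and 100 nM libraries. RPL8, also of the large subunit, had 7209, 7905 and 8021 TPM. RPS6, the S6 kinase substrate of the small subunit, had 6509, 7033 and 7130 TPM, and RPL23 had 6064, 6290 and 6372 TPM. These 4 of the 5 highest genes stood in the order listed in the DMSO library, and their counting error was below their spacing.

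The lowest was RPL36A, with 46.4, 41.8 and 43.4 TPM from 250, 219 and 239 counts. RPS26 had 52.4, 49.1 and 47.0 TPM, RPL26L1 had 100.1, 88.0 and 86.1 TPM, RPS27 had 100.3, 106 and 106 TPM, and RPS28 had 108, 115 and 95.3 TPM. RPL26L1 and RPS27 were within counting error of each other in the DMSO library, with 848 and 420 counts on exons of 710 and 351 bases. The range from RPL36A to RPL30 was 218-fold, although most of the encoded proteins are present once in each ribosome. The deposited exon lengths ran from 351 to 5185 bases, the longest far above those of the usual ribosomal protein mRNA. RPL28 (5185 bases), RPL27A (4879 bases) and RPS23 (3314 bases) were therefore at 314, 385 and 764 TPM in DMSO from 19450, 22423 and 30186 counts, and were named after their values were seen.

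Sequence shared with other places in the genome moved with these levels. Of the 80 genes, 68 had at least 1 window of 75 bases, the read length, whose exact sequence also occurs elsewhere in the hg19 genome, and 19 had at least 50% of their windows elsewhere. The median was 659 TPM for those 19 and 2654 TPM for the 43 genes with less than 20% of windows elsewhere. Spearman's rho between the percentage of windows elsewhere and TPM was -0.46 over 80 genes, which all come from the same library. The 5 lowest genes had 34.1% (RPL26L1), 60.9% (RPS26), 76.9% (RPS28), 86.0% (RPL36A) and 94.9% (RPS27) of windows elsewhere, and the 4 high genes named above 0.0% to 5.57%. How the authors treated reads that match several places is not given in the sources used here, and the part of these copies in the low levels was not tested.

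**Figure D1:**
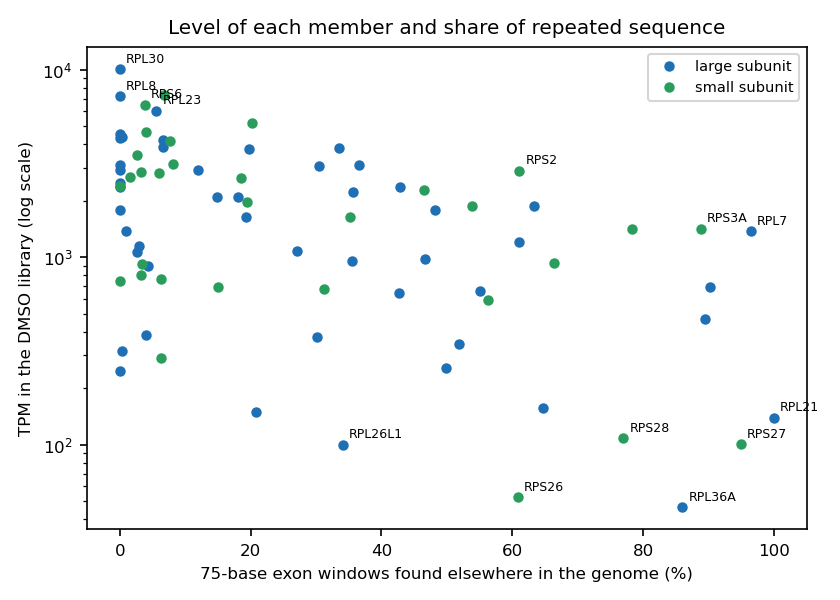
Each point is 1 of the 80 ribosomal protein genes. The horizontal axis gives the percentage of its 75-base exon windows found elsewhere in the genome, and the vertical axis its TPM in the DMSO library on a log scale, coloured by subunit. The highest genes (RPL30 at 10109 TPM) lie near 0% and the lowest (RPL36A at 46.4 TPM) at 34.1% and above.

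A pseudogene held many counts of the same family. RPL13AP5, a processed copy of RPL13A, had 89466, 91601 and 100719 counts in the DMSO, 50 nM and 100 nM libraries, against 30049, 30528 and 34379 counts for RPL13A itself. The pseudogene thus exceeded the parent gene in every library. Summed, RPL13A and RPL13AP5 differed from DMSO by 0.12 on the log2 scale at 100 nM (95% counting interval 0.11 to 0.13). The level and difference of RPL13A are therefore uncertain, as are those of RPL21, all of whose windows occur elsewhere.

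As a group, the ribosomal protein genes took a slightly larger share of all counts after pyrvinium. The share was 7.06% with DMSO, 7.59% with 50 nM and 7.45% with 100 nM pyrvinium, with 95% Wilson intervals of 7.05% to 7.07%, 7.58% to 7.60% and 7.44% to 7.46%. The intervals cover counting error only and do not overlap. Both subunits moved alike: the large subunit took 4.30%, 4.62% and 4.55%, and the small subunit 2.76%, 2.96% and 2.91%. Without the mitochondrially encoded counts, the shares were 7.48%, 7.96% and 7.85%, in the same order. In bulk RNA a share does not tell more RNA of these genes from less of the others, nor fewer cells of a kind from less RNA per cell.

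**Figure D2:**
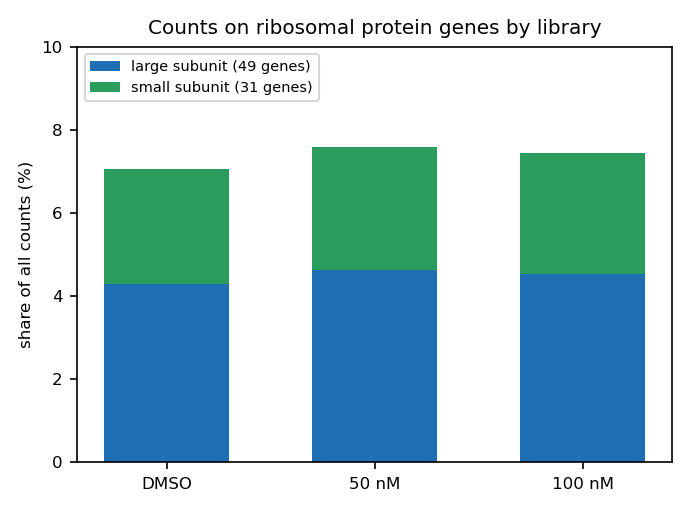
Bars give the percentage of all counts on ribosomal protein genes in each library, from 0, divided into large-subunit (49 genes) and small-subunit (31 genes) shares. The total was 7.06% in DMSO, 7.59% at 50 nM and 7.45% at 100 nM, with 1 library per condition and counting intervals narrower than the bar edges.

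At 100 nM the ribosomal protein genes were slightly higher than in DMSO. The median log2 fold change, from counts scaled by the edgeR TMM method, was 0.06 with quartiles of 0.00 and 0.10, and the median of all 12879 genes was -0.002. The values were spread from -0.24 to 0.31 with an SD of 0.09 over genes. The counts summed over the 80 genes were 1.055-fold those of DMSO after scaling (log2 0.08, 0.07 to 0.08). A log2 fold change of at least 0.32 in size, which is 25% higher or lower by the same ratio, with a counting interval outside 0 was taken as a call. No gene of the set was called, against 11.5% of all genes tested called higher and 8.89% called lower, and 7.08% and 6.58% of the genes that averaged 1000 counts or more. At 2-fold it was again 0 of 80, against 2.68% of all genes in either direction.

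By direction, 60 of the 80 were higher and 20 lower at 100 nM, and 49.6% of all genes tested were higher. The counting interval lay above 0 for 50 (62.5%), below 0 for 7 (8.75%) and spanned 0 for 23. Over all genes tested, 24.0% of intervals lay above 0 and 25.3% below. Since intervals narrow with depth, the nearer background is the 331 genes that averaged 10000 counts or more, of which 48.6% lay above 0 and 37.5% below. Of the 58 ribosomal protein genes this deep, 75.9% lay above and 6.9% below. The 331 include these 58, and of the 273 other genes of that depth 42.9% lay above 0 and 44.0% below. These 273 had a median of -0.01 and an SD of 0.31, against 0.07 and 0.06 for the 58. The large subunit had a median of 0.06 and the small subunit also 0.06.

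**Figure D3:**
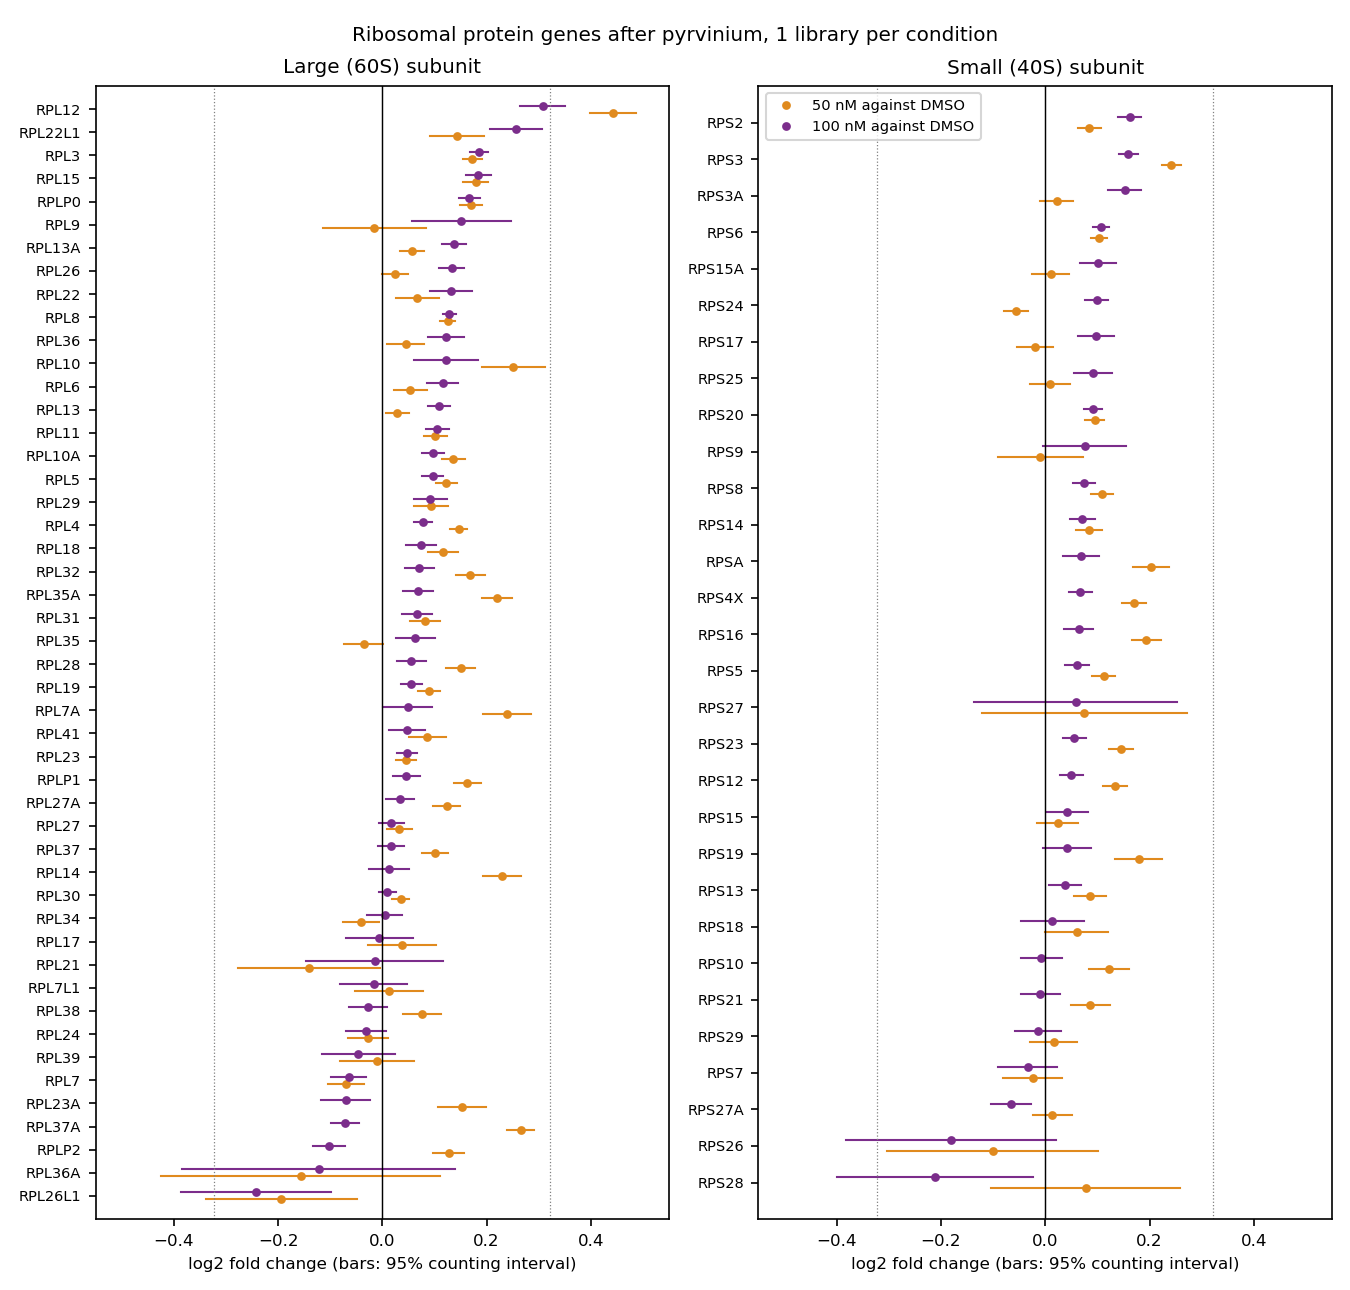
Each row is 1 gene (78 of the 80 are drawn), in order of its log2 fold change at 100 nM, with the large subunit at left and the small subunit at right. Points give the log2 fold change against the shared DMSO library at 50 nM and 100 nM, bars the 95% counting interval, and dotted lines a log2 fold change of 0.32 in either direction. RPL12 passes this line at 50 nM, with no other gene past it at either dose, and RPL26L1 is lowest at 100 nM (-0.24).

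The 5 genes with the highest log2 fold change at 100 nM, RPL12, RPL22L1, RPL3, RPL15 and RPLP0, were all of the large subunit. RPLP0, and RPLP2 among the lowest 5, are described with the stalk. RPL12 (GeneID 6136, chr9:130209955-130213684 in hg19), a protein at the base of the ribosomal stalk, had 7397, 9818 and 9521 counts in the DMSO, 50 nM and 100 nM libraries. It was higher in both pyrvinium libraries than in DMSO, by 0.31 on the log2 scale at 100 nM (0.26 to 0.35) and 0.44 at 50 nM (0.40 to 0.49). The 50 nM value, 1.36-fold, was the largest of the set in either dose, and 46.7% of the windows of RPL12 occur elsewhere. The share was 42.9% for RPLP0, 36.6% for RPL3, 27.1% for RPL15 and 0.0% for RPL22L1. At 100 nM the SD over genes was 0.12 for the 37 genes with at least 20% of windows elsewhere. It was 0.06 for the 43 with less. The part of these copies in the differences was not tested.

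RPL22L1 (GeneID 200916, chr3:170582664-170588045), the paralog of RPL22, had 5781, 6233 and 7182 counts and was 0.26 above DMSO on the log2 scale at 100 nM (0.21 to 0.31). It was higher at each successive dose. RPL3, which lies at the peptidyl transferase centre, had 49758, 54768 and 58883 counts and 0.19 at 100 nM (0.17 to 0.20). RPL15 had 25693, 28400 and 30366 counts and 0.18 (0.16 to 0.21). In RPL3 and RPL15 the difference was present at 50 nM, at 0.17 and 0.18, and the 100 nM and 50 nM libraries did not differ beyond counting error. Of the exon bases of RPL15, 34.7% overlap a gene on the other strand, as do 51.5% of those of RPL13A and 28.6% of those of RPS19, and the strand setting of the counting is not given in the sources used here.

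The lowest was RPL26L1 (GeneID 51121, chr5:172386439-172396774), with 848, 724 and 746 counts and log2 fold changes of -0.24 at 100 nM (-0.39 to -0.10) and -0.19 at 50 nM (-0.34 to -0.05). RPS28, on chromosome 19, had 494, 509 and 444 counts and -0.21 at 100 nM (-0.40 to -0.02), with 0.08 at 50 nM (-0.10 to 0.26). RPS26 had 426, 388 and 391 counts and -0.18 (-0.38 to 0.02). RPL36A had 250, 219 and 239 counts and -0.12 (-0.38 to 0.14). The intervals of RPS26 and RPL36A reached past 0, and these 4 genes were among the 5 of lowest TPM.

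**Figure D4:**
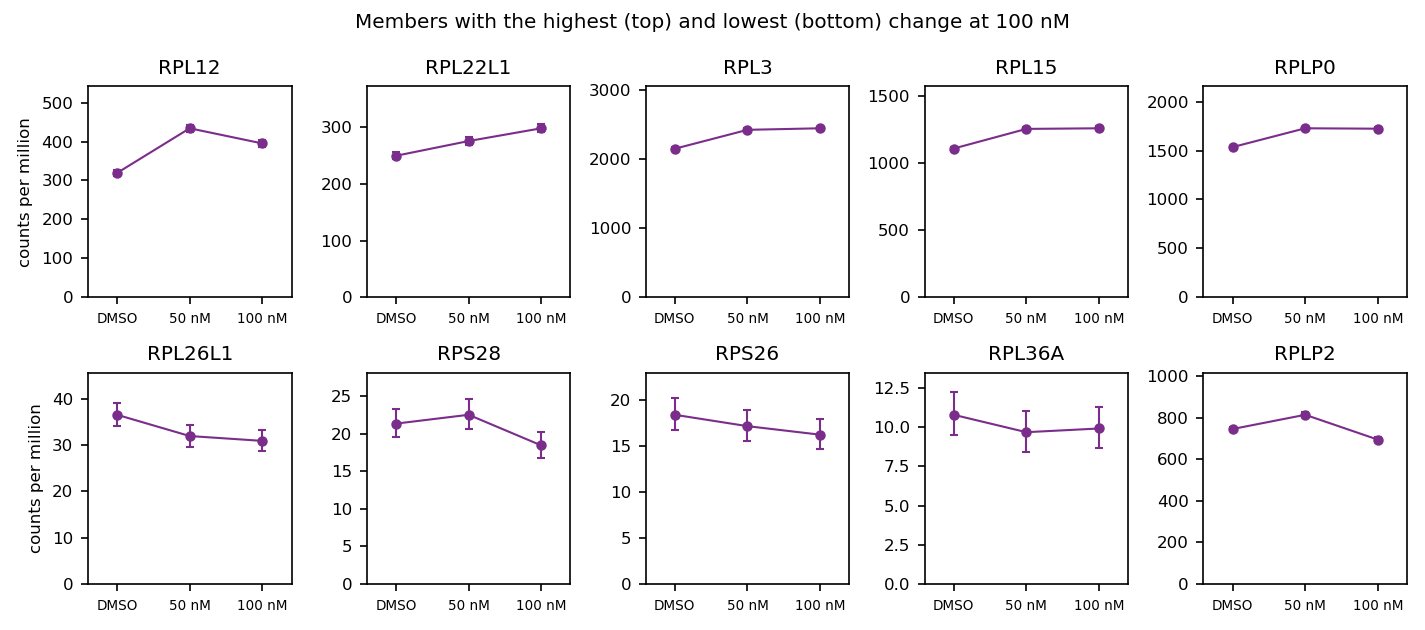
CPM (counts relative to the library total, scaled by TMM) in each library for the 5 genes with the highest (top) and the 5 with the lowest (bottom) log2 fold change at 100 nM, each panel starting at 0. Bars are 95% counting intervals. RPL12 peaks at 50 nM, RPL22L1 is higher at each dose, and RPLP2 is above DMSO at 50 nM and below it at 100 nM.

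The stalk proteins, which recruit the translation factors that hydrolyse GTP, did not move together at 100 nM. RPLP0, the anchor of the stalk, had 35557, 39073 and 41524 counts and log2 fold changes of 0.17 at 50 nM and 0.17 at 100 nM (0.15 to 0.19 in both). RPLP1 had 23520, 25716 and 25260 counts, with 0.16 at 50 nM (0.14 to 0.19) and 0.05 at 100 nM (0.02 to 0.07). RPLP2, its dimer partner, had 17269, 18415 and 16732 counts, with 0.13 at 50 nM (0.10 to 0.16) and -0.10 at 100 nM (-0.13 to -0.07). All 3 were above DMSO at 50 nM, and RPLP2 was below it at 100 nM.

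RPL5 and RPL11 form with 5S rRNA the particle that binds MDM2 when ribosome assembly fails. RPL5 had 36069, 38351 and 40118 counts, with 0.12 at 50 nM and 0.10 at 100 nM (0.08 to 0.12). RPL11 had 31800, 33323 and 35597 counts, with 0.10 and 0.11 (0.08 to 0.13). Both were higher in each pyrvinium library by about the same amount. RPL26, a large-subunit protein near the exit tunnel, had 26522, 26329 and 30263 counts, at 0.02 in the 50 nM comparison, with an interval spanning 0, and 0.13 in the 100 nM comparison (0.11 to 0.16).

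In the small subunit, RPS6 had 64372, 67548 and 72092 counts, with 0.10 at 50 nM (0.09 to 0.12) and 0.11 at 100 nM (0.09 to 0.12). RPSA, also known as the laminin receptor, had 12756, 14334 and 13914 counts, with 0.20 at 50 nM (0.17 to 0.24) and 0.07 at 100 nM (0.03 to 0.10). RPS19, the gene most often altered in Diamond-Blackfan anemia, had 7524, 8318 and 8059 counts, with 0.18 at 50 nM (0.13 to 0.22) and 0.04 at 100 nM, where the interval spanned 0. RPSA and RPS19 were thus highest at 50 nM, while RPS6 was level between the doses. RPS15, whose tail reaches the decoding site, had 10357, 10280 and 11097 counts and 0.04 at 100 nM (0.00 to 0.08). RPS27A, made as a fusion with ubiquitin, had 11367, 11203 and 11297 counts and -0.07 at 100 nM (-0.10 to -0.03). FAU, which encodes a small-subunit protein and lies outside the symbol rule, was at -0.09 (-0.13 to -0.04) at 100 nM.

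Among the remaining genes named by role, RPL13A, a translational silencer outside the ribosome, had 0.06 at 50 nM and 0.14 at 100 nM (0.12 to 0.16). RPL39, at the exit tunnel, had 3306, 3206 and 3331 counts and -0.05 at 100 nM (-0.12 to 0.02). RPL41, the smallest protein of the ribosome, had 13040, 13520 and 14022 counts and 0.05 (0.01 to 0.08). RACK1, a small-subunit scaffold named outside the rule, had 37487, 42865 and 42915 counts, with 0.23 at 50 nM (0.21 to 0.25) and 0.14 at 100 nM (0.12 to 0.16). RACK1 was thus higher than most ribosomal protein genes in both comparisons.

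At 50 nM the differences from the same DMSO library were of similar size, with a median log2 fold change of 0.09 and a range of -0.19 to 0.44. RPL12 was the only gene called higher and none was called lower, against 5.75% and 4.78% of all genes tested, and 2.69% and 1.78% of those that averaged 1000 counts or more. Of the 80, 66 were higher and 14 lower, against 50.2% of all genes higher, with 55 intervals above 0 (68.8%), 5 below and 20 spanning 0. The background was 18.6% above and 18.5% below over all genes, and 53.8% above and 25.4% below at 10000 counts or more. At that depth 79.3% of the ribosomal protein genes were above and 5.17% below, and of the 273 other genes 48.4% and 29.7%. The median was 0.09 in the large and 0.08 in the small subunit.

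After RPL12, the highest at 50 nM was RPL37A, a zinc-binding protein of the large subunit, with 21669, 25432 and 21447 counts. It was 0.27 above DMSO at 50 nM (0.24 to 0.29) and -0.07 at 100 nM (-0.10 to -0.04). RPS3, at the mRNA entry channel and the highest of the small subunit at 50 nM, had 46916, 54181 and 54513 counts, with 0.24 at 50 nM (0.22 to 0.26) and 0.16 at 100 nM (0.14 to 0.18). RPS3 was thus above DMSO at both doses, and RPL37A only in the 50 nM library. None of the windows of RPL37A occurs elsewhere in the genome. RPL37A and RPS3 were chosen for naming with their values in view.

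By point values, the level at 50 nM lay above those of both other libraries for 48 of the 80 genes, against 21.7% of all genes tested and 33.5% of the 331 genes that averaged 10000 counts or more. These 331 include 58 of the 80 genes, and 62.1% of the 58 had this pattern. The level at 50 nM was below both for 9 (11.2%, against 21.8% and 5.74%). The order DMSO, 50 nM, 100 nM was upward for 18 genes (22.5%, against 28.4% and 31.1%), RPL22L1 among them, and downward for 5 (6.25%, against 3609 of the 12879 genes tested and 29.6% of the deep ones), RPL24, RPL26L1, RPL39, RPS26 and RPS7. For these 5, the 100 nM and 50 nM libraries did not differ beyond counting error. Nor did they for RPL3, RPL8, RPL11, RPL15, RPL23, RPS6 and RPS15 of the upward group. Among the 48 genes highest at 50 nM, the same held for RPL17, RPL27, RPL29, RPL31, RPL7L1, RPLP0, RPS14, RPS18, RPS20, RPS27 and RPS29. Among the 9 lowest at 50 nM, it held for RPL7, RPL21 and RPL36A. RPLP2, RPL23A and RPL37A had intervals above 0 at 50 nM and below 0 at 100 nM, and RPS24, with 32644, 30652 and 36361 counts, the reverse. These patterns rest on the 1 library at 50 nM and on the shared DMSO library.

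The comparison of 100 nM with 50 nM does not use the DMSO counts in its ratios, although all libraries entered the scaling and the count filters. The median over the 80 genes was -0.03, with a range of -0.34 to 0.17. Only RPL37A was called lower, at -0.34 (-0.36 to -0.31), and none was called higher, against 2.0% and 3.27% of all genes, and 0.521% and 0.702% of those that averaged 1000 counts or more. Of the 80, 27 were higher, against 50.2% of all genes. The interval was above 0 for 17, below 0 for 37 (46.2%) and spanned 0 for 26, against 12.5% above and 14.3% below over all genes. At 10000 counts or more, 51.7% of the ribosomal protein genes lay below 0 and 22.4% above. Of all 331 genes, 49.5% lay below and 27.8% above, and of the 273 others 49.1% and 28.9%. The share of lower genes was thus near the background of equally deep genes.

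**Figure D5:**
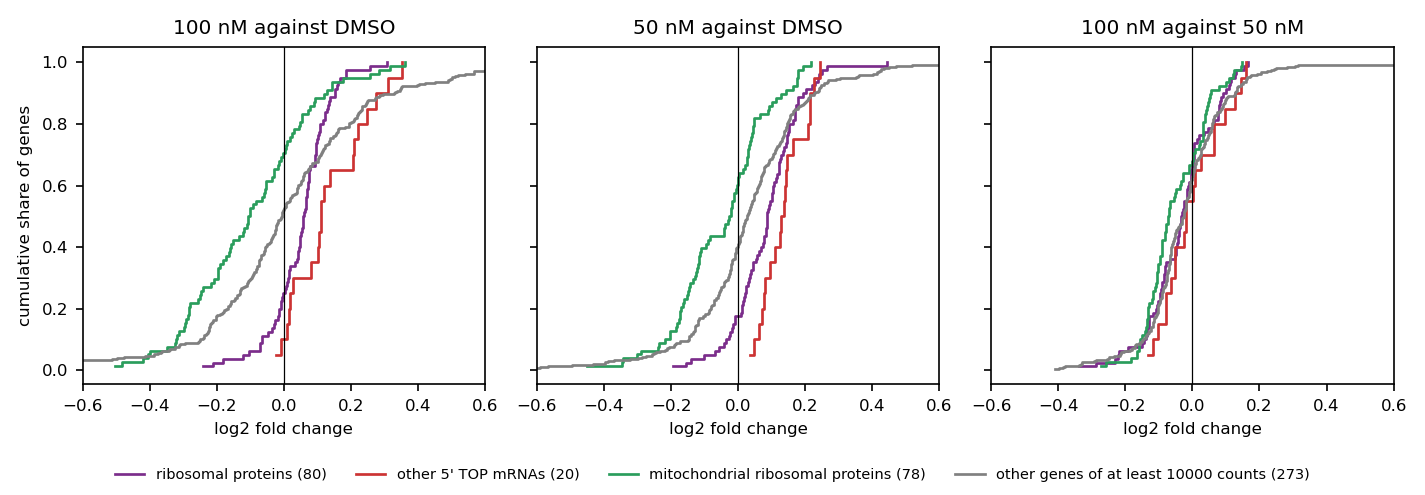
Cumulative share of genes (vertical) by log2 fold change (horizontal, drawn from -0.6 to 0.6, so the ends of some curves lie outside) for the 80 ribosomal protein genes, 20 other 5′ TOP mRNAs, 78 mitochondrial ribosomal protein genes and 273 other genes with at least 10000 counts. The ribosomal protein curve lies right of the mitochondrial one in the comparisons with DMSO (medians 0.06 and -0.10 at 100 nM), and the curves lie close together for 100 nM against 50 nM.

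Of the paralog pairs within the rule, RPL22 and RPL22L1, and RPL26 and RPL26L1, had intervals at 100 nM that did not overlap. RPL22 had 9285, 9500 and 10577 counts and 0.13 at 100 nM (0.09 to 0.17), below the 0.26 of RPL22L1 but in the same direction. RPL26 and RPL26L1 lay on opposite sides of 0 at 100 nM, at 0.13 and -0.24. RPL7 had 13796, 12840 and 13722 counts and -0.06 at 100 nM (-0.10 to -0.03), while RPL7L1 had 3903, 3845 and 4014 counts and -0.02 (-0.08 to 0.05), so that their intervals overlapped. RPL7 has 96.5% of its windows elsewhere, RPL7L1 49.9%, RPL26 33.5%, RPL26L1 34.1%, RPL22 30.1% and RPL22L1 0.0%.

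Among the paralogs outside the rule, RPL36AL had 4171, 3508 and 3401 counts and was lower at both doses, at -0.22 at 50 nM (-0.28 to -0.15) and -0.35 at 100 nM (-0.42 to -0.29). It exceeded RPL36A in level, with 669, 579 and 533 TPM. RPS27L had 2518, 2380 and 2734 counts and 0.06 at 100 nM (-0.02 to 0.14). RPL39L had 477, 429 and 459 counts and -0.11 (-0.30 to 0.08). RPL10L had 1 count in DMSO and 0 in the other libraries, and RPL3L, the muscle paralog, had 0 counts in each library, which allows up to 3 counts.

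Genes with and without a tract were compared under both definitions of it. The median log2 fold change at 100 nM was 0.06 for the 43 genes with a tract and 0.06 for the 22 without. At 50 nM it was 0.09 with and 0.05 without. With a tract allowed to start within 5 bases, the 51 genes with one had medians of 0.06 at 100 nM and 0.09 at 50 nM, and the 14 without had 0.03 and 0.03. With the tract read from the first base, RPL12, RPL22L1 and RPLP0 of the highest genes had one and RPL3 and RPL15 none. Among the lowest genes, RPLP2 and RPL36A had a tract of 13 and 10 bases and RPL26L1, RPS26 and RPS28 none. With a start allowed within 5 bases, RPL3 and RPS28 also had one. Other motifs were searched on both strands of the 300-base promoter windows. The GABPA-type motif CCGGAAG was found in 33.8% of the 65 genes and 10.7% of all promoters, the YY1-type motif CCATNTT in 27.7% and 15.9%, TATAAA in 9.23% and 12.0%, and the E-box CACGTG in 6.15% and 7.43%. In the promoters of 70 mitochondrial ribosomal protein genes CCGGAAG and CCATNTT were each found in 41.4%, and in those of 13 other 5′ TOP mRNAs in 23.1% and 46.2%. None of these motifs contains another, and a match is a description only.

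The other 5′ TOP mRNAs, which encode translation factors and related proteins, were higher too. Of 20, 18 were higher at 100 nM, with 14 intervals above 0 and 0 below, and all 20 intervals were above 0 at 50 nM. Over all genes tested, 24.0% of intervals lay above 0 and 25.3% below at 100 nM, and 18.6% above at 50 nM. At 10000 counts or more, 48.6% lay above and 37.5% below at 100 nM, and 53.8% above at 50 nM. With the ribosomal protein genes left out, these shares were 42.9%, 44.0% and 48.4%. The medians of the 20 were 0.11 at 100 nM and 0.13 at 50 nM. EEF2, the elongation factor that translocates the ribosome, had 130720, 149408 and 173681 counts. It was the only one of the 20 called, at 0.35 in the 100 nM comparison (0.34 to 0.36), against 11.5% of all genes called higher. A tract at the first base was present in 10 of the 13 with a promoter entry.

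The 78 genes of mitochondrial ribosomal proteins, which serve the separate ribosome of the organelle, had a lower median. At 100 nM 23 were higher and 55 lower, and the median was -0.10. There, 10 intervals (12.8%) lay above 0 and 39 (50.0%) below, against 24.0% and 25.3% of all genes tested. Since intervals narrow with depth, genes that averaged 1000 counts or more are a nearer background. Among these, 30.3% lay above 0 and 38.0% below, with a median of -0.02. Of the 78, 1 was called higher, against 11.5% of all genes, and 7 were called lower, near the 8.89% of all genes. At 50 nM the median was -0.02. A tract at the first base was found in 5 of 70 (7.14%).

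Of 17 genes for regulators of ribosomal protein mRNA or of ribosome surveillance, 10 intervals lay above 0 and 2 below at 100 nM, and 3 genes were called higher. Over all genes tested, 24.0% lay above 0, 25.3% below and 11.5% were called higher. At 1000 counts or more the shares were 30.3%, 38.0% and 7.08%. The 17 were listed with earlier results of these data known, so their counts are a description only. DDIT4 and SESN2, inhibitors of mTORC1, had log2 fold changes of 1.70 and 1.70, and MYC, an activator of ribosomal protein genes, 0.61 (0.58 to 0.63). LARP1 had 10999, 12159 and 13456 counts and 0.23 at 100 nM (0.20 to 0.27). EIF4EBP1, the translation repressor that mTORC1 inactivates, was at 0.18 (0.13 to 0.23), and EIF4E, its target, at -0.24 (-0.33 to -0.14). MDM2 was at 0.25 (0.17 to 0.33). DDIT4 and SESN2 lay outside the range of the ribosomal protein genes, which ended at 0.31.

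Across the 80 genes, the log2 fold change at 100 nM had a Spearman's rho of 0.38 with exon length, 0.27 with TPM and 0.10 with GC content. At 50 nM the values were 0.25, 0.29 and 0.29. Among the 43 genes with less than 20% of windows elsewhere, they were 0.33, 0.07 and 0.19 at 100 nM. At 50 nM these 43 genes had 0.09, 0.22 and 0.15. Over the 4986 genes that averaged 1000 counts or more, the rho with exon length at 100 nM was 0.23 and that with TPM -0.22. The points share libraries and, in part, reads of related copies, so these are descriptions. The part of transcript length in the differences was not tested.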

How the data were processed

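Molm13 RNA was sequenced as 75-base paired reads from a strand-specific mRNA kit. Per the labels and the study's methods, the authors used Rsubread with hg19 as the genome, and what they deposited are read counts per gene, whole numbers without normalization, with Entrez identifiers, exon coordinates and exon lengths. The counter's version, its strand setting and its treatment of reads that match several genes are not given in the sources used here. The deposited table of EBSeq comparisons (posterior probabilities, fold changes and condition means) was used only to pair identifiers with symbols, and its values, some of another unit, were not used. There were 0 columns without a sample.

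Counts were scaled with edgeR 4.0.16 (TMM, R 4.3.3), and genes reaching 10 counts in any 1 library were tested. To compute log2 fold changes, 0.5 counts were added in each library. The 95% exact (Clopper-Pearson) interval of each count ratio (scipy 1.17.1) covers counting error only. The procedure was run on simulated counts that held counting error only, so that run says nothing about variation between cultures. With 1 library per condition no p-value was computed, and no difference has a replicate check. A call is a difference of at least 25% upward, or the same ratio downward, with an interval outside 0. The log2 fold changes of gene groups are described by medians beside those of all genes tested.

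The genes and lists were chosen with earlier results of these data known. The genes named are the 5 highest and 5 lowest by TPM in DMSO and by log2 fold change at 100 nM (at least 100 counts in each library), genes listed by role, paralogs, FAU and RACK1, and regulators; any other was named after its values were seen. The background of at least 10000 counts, the 75-base windows and their limits of 20% and 50%, the pseudogene counts, the tracts and the motifs were chosen after values were seen. Windows were searched exactly, on both strands, in GRCh37. TPM is the count per exon base, scaled to the library.

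The alternatives tried were the size factors of DESeq2 1.42.0, scaling by total counts or upper quartile, TMM without mitochondrially encoded or without the ribosomal protein genes, other count filters, 5 counts added, a wider reading of the symbols, other folds, and leaving out genes that overlap another on the same strand. Some genes that this rule names are not reported here, although counts and medians over lists include them.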

Additional observations from a re-analysis of the deposited data

How the results depend on the processing

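The medians kept their sign in all 3 comparisons under every alternative run, and the scalings moved the libraries by at most 0.0248 on the log2 scale. Over the 6 scalings, 60 to 67 of the 80 genes were higher at 100 nM than in DMSO, 66 to 68 higher at 50 nM, and 48 to 53 lower at 100 nM than at 50 nM. With upper-quartile scaling, 1 gene was called higher at 100 nM against DMSO. With the wider reading of the symbols, 1 (RPL36AL) was called lower at 100 nM, and the median level was 1526, 1579 and 1616 TPM in the DMSO, 50 nM and 100 nM libraries, against 1709, 1761 and 1823. Among genes with less than 20% of windows elsewhere, a setting chosen after seeing the data, 0 were called higher at 50 nM. At a fold of 1.1, 9 of the 80 were higher and 2 lower at 100 nM against DMSO, 22 and 2 at 50 nM, and 2 and 8 at 100 nM against 50 nM. The share of all genes past a fold of 1.1 was not computed. These counts of the 80 therefore show only how the calls depend on the fold. At folds of 1.5 and 2, 0 were higher at 50 nM and 0 lower at 100 nM against 50 nM. The share of counts was 7.48%, 7.96% and 7.85% without mitochondrially encoded counts, and 17.1%, 18.5% and 18.2% as TPM. No paired analysis was possible because each condition has 1 library. Without replicates, the spread between cultures is unknown, and differences of this size could lie within it.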
